A study of Homo sapiens with 12 samples.

Results

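The genes described here answer to unfolded protein in the endoplasmic reticulum (ER) and to amino acid shortage, 38 genes in all. They were chosen by symbol in the platform annotation, and where several probe sets read a gene, the probe set with the highest mean over the 12 arrays stood for it. Of the 38 genes, 37 were measured by a probe set that lists a single gene, out of 19775 genes so measured. The probe set for SYVN1, the ubiquitin ligase of ER-associated degradation, lists a second gene, so SYVN1 has no value here. The genes fall into an ATF4 arm of 18 genes, an ER chaperone arm of 15 genes with 14 measured, and 5 transducers of ER stress.

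Cells sense misfolded protein in the ER through the membrane proteins PERK (EIF2AK3), IRE1 (ERN1) and ATF6. PERK phosphorylates the initiation factor subunit eIF2 alpha (EIF2S1), which slows translation in general but favours translation of ATF4, and the kinase GCN2 does the same when amino acids run short. ATF4 then turns on genes for amino acid uptake and synthesis and, under long stress, DDIT3 (CHOP), TRIB3 and CHAC1, whereas cleaved ATF6 and spliced XBP1 turn on chaperones, folding enzymes and degradation factors. Arrays of this kind read mRNA, so they show neither the translation of ATF4, nor the cleavage of ATF6, nor the splicing of XBP1.

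Ishikawa cells are an established human line from an endometrial adenocarcinoma. Per the labels' protocols, all cells were transfected with siRNA for 48 h and then given peptide for 24 h. The 4 groups of 3 arrays were control siRNA with 10 µM metastin-10, siRNA against GPR54 with 10 µM metastin-10, GPR54 siRNA with a control peptide, and control siRNA with the control peptide. Metastin-10, also known as kisspeptin-10, is a short peptide agonist of GPR54, and GPR54 is the protein of KISS1R. The study asked which transcripts metastin-10 changes and whether the receptor is needed for the change. Every group was transfected, so no untransfected cells enter the comparisons. The labels name neither the sequence of the control peptide nor whether the siRNA was a single duplex or a pool.

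The arrays correlated with each other at 0.992 to 0.998 (Pearson's r over probe sets, a description). The third replicate of every group stood apart: its difference between the 3′ and 5′ actin control probe sets, a sign of RNA length, was 0.313 ± 0.035 log2 units, against 0.773 ± 0.087 in replicate 1 and 0.719 ± 0.054 in replicate 2 (SD, n = 4 arrays each). Each group holds 1 such array. All 6 epithelial markers averaged between 9.67 (CLDN4) and 14.0 (KRT18), and the 5 endometrial and Müllerian markers between 8.59 (ESR1) and 11.3 (HOXB7). The 3 leukocyte markers measured averaged between 3.48 (PTPRC) and 5.20 (CD3E), the 4 endothelial markers between 3.42 (CDH5) and 6.97 (VWF), and the 5 stromal markers between 2.56 (LUM) and 9.84 (COL1A1). All these and the values below are log2 levels made by RMA, and levels of different probe sets cannot be set against each other. The marker ranges are thus a description only.

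KISS1R is the gene the siRNA targets, and its level was no lower where the label names the GPR54 siRNA. With metastin-10 it had 9.60, 9.42 and 9.28 in arrays labelled GPR54 siRNA, against 8.43, 8.42 and 8.35 under control siRNA. With control peptide it had 9.46, 9.45 and 9.36 in arrays labelled GPR54 siRNA, against 9.39, 9.32 and 9.14 under control siRNA, a difference of 0.14 (95% interval −0.07 to 0.35). The mRNA level therefore does not bear out the label, and the arrays are called "labelled GPR54 siRNA" where a direction is drawn from it.

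Promoter elements bound by the factors of these pathways are shown because they describe the genes without use of any measured level. RefSeq windows on GRCh38.p14, from 250 bases before to 50 after each gene start, existed for 36 of the 38 genes (SHMT2 and SLC7A11 had none). They were searched on both strands for the ER stress response element ERSE (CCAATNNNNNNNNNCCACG), for ERSE-II (ATTGGNCCACG), for the XBP1 element UPRE (TGACGTGG) and for a C/EBP-ATF core (TGATGCAA). Capitals mark the element, written 5′ to 3′ on the gene's strand, and in HSP90B1 (the nearer copy), CALR, CRELD2, SDF2L1, CHAC1 and HERPUD1 (the C/EBP-ATF core) it lies on the opposite strand. ERSE was found in 6 of 15 ER chaperone genes and in the transducer XBP1, in 0 of 16 ATF4 arm genes with a window, and in 25 of 27305 genes (0.0916%).
HSPA5, chr9:125241381-125241419, minus strand: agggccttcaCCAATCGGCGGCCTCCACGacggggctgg
HSP90B1, chr12:103930206-103930244, plus strand: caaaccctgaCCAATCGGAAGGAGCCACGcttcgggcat
HSP90B1, chr12:103930311-103930349, plus strand: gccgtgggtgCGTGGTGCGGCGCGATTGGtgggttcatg
PDIA6, chr2:10812843-10812881, minus strand: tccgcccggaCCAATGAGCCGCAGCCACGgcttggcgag
CALR, chr19:12938374-12938412, plus strand: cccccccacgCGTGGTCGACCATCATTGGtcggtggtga
CANX, chr5:179698768-179698806, plus strand: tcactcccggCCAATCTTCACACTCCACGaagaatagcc
CRELD2, chr22:49918544-49918582, plus strand: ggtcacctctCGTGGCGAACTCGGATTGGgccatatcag
XBP1, chr22:28800593-28800631, minus strand: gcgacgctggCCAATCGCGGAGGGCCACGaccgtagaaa

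ERSE-II was found in HERPUD1 and SDF2L1, both of the ER chaperone arm, and in 0.0696% of all genes. The C/EBP-ATF core, the kind of site that ATF4 binds with a C/EBP partner, was found in CHAC1 and CEBPG of the ATF4 arm and in HERPUD1, and in 1.08% of all genes. UPRE was found in 0 genes of the list and in 0.927% of all genes.
HERPUD1 (ERSE-II), chr16:56932015-56932045, plus strand: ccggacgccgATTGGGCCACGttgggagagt
SDF2L1 (ERSE-II), chr22:21642104-21642134, plus strand: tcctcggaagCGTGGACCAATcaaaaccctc
CHAC1 (C/EBP-ATF core), chr15:40953252-40953279, plus strand: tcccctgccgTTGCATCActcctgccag
CEBPG (C/EBP-ATF core), chr19:33374061-33374088, plus strand: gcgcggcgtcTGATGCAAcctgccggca
HERPUD1 (C/EBP-ATF core), chr16:56931956-56931983, plus strand: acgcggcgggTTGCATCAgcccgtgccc

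Metastin-10 set against control peptide in the control siRNA cells asks what the peptide does after control siRNA. KISS1R itself was lower with metastin-10 here (difference −0.88, adjusted p from limma 0.00213), so the control siRNA, metastin-10 arrays had the lowest KISS1R of the 4 groups. Metastin-10 lowered 1 gene of the list, DDIT4 of the ATF4 arm, by 1.83-fold. DDIT4 (REDD1) restrains the growth kinase complex mTORC1 and is a known target of ATF4 and of the hypoxia factor HIF-1. No ER chaperone and no transducer passed the test. By limma's moderated test with Benjamini-Hochberg adjustment over all probe sets (threshold 0.05), the call is 1 of 37 genes, where 0.607% of all genes were called.

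DDIT4 had 11.21, 11.26 and 11.30 in metastin-10 arrays under control siRNA, against 12.04, 12.18 and 12.17 in control peptide arrays. All 3 metastin-10 arrays lay below all 3 control peptide arrays. The difference was −0.87 ± 0.07 on the log2 scale (SE; 95% interval −1.03 to −0.71; adjusted p from limma 0.000319), and pairs of the same replicate number differed by −0.83, −0.92 and −0.87. A single probe set reads DDIT4, so no other probe set bears on it. In RNA from whole cultures, a large change in some cells and a smaller change in all cells cannot be told apart.

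Genes that answer to hypoxia moved with DDIT4 in this comparison. Of 25 measured genes of a hypoxia list, 11 fell with metastin-10 under control siRNA and 0 rose, where 0.607% of all genes were called. The list's median difference was −0.45. The list was set beside DDIT4 with earlier results of these data known, so the shared movement is a description only. The per-array median of that list, set against the mean of the control siRNA, control peptide arrays, was −0.51, −0.44 and −0.40 with metastin-10 and 0.01, 0.02 and −0.02 with control peptide. The part of the hypoxia genes' regulators in the DDIT4 difference was not tested. The hypoxia core ACGTG, a motif chosen after the values were seen whose letters also lie inside UPRE, stood once in capitals 125 bases before the DDIT4 start, in a window shown because it belongs to the gene that changed. It was found in 24.9% of all genes, in 3 of 16 ATF4 arm genes (ATF4, DDIT4 and SLC7A5) and in 8 of 15 ER chaperone genes.
DDIT4, chr10:72273674-72273923, plus strand: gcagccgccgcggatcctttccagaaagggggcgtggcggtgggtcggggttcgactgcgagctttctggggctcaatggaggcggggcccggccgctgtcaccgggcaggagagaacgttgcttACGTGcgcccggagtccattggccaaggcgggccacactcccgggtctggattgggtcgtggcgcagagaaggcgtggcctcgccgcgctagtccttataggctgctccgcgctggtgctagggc

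**Figure D1:**
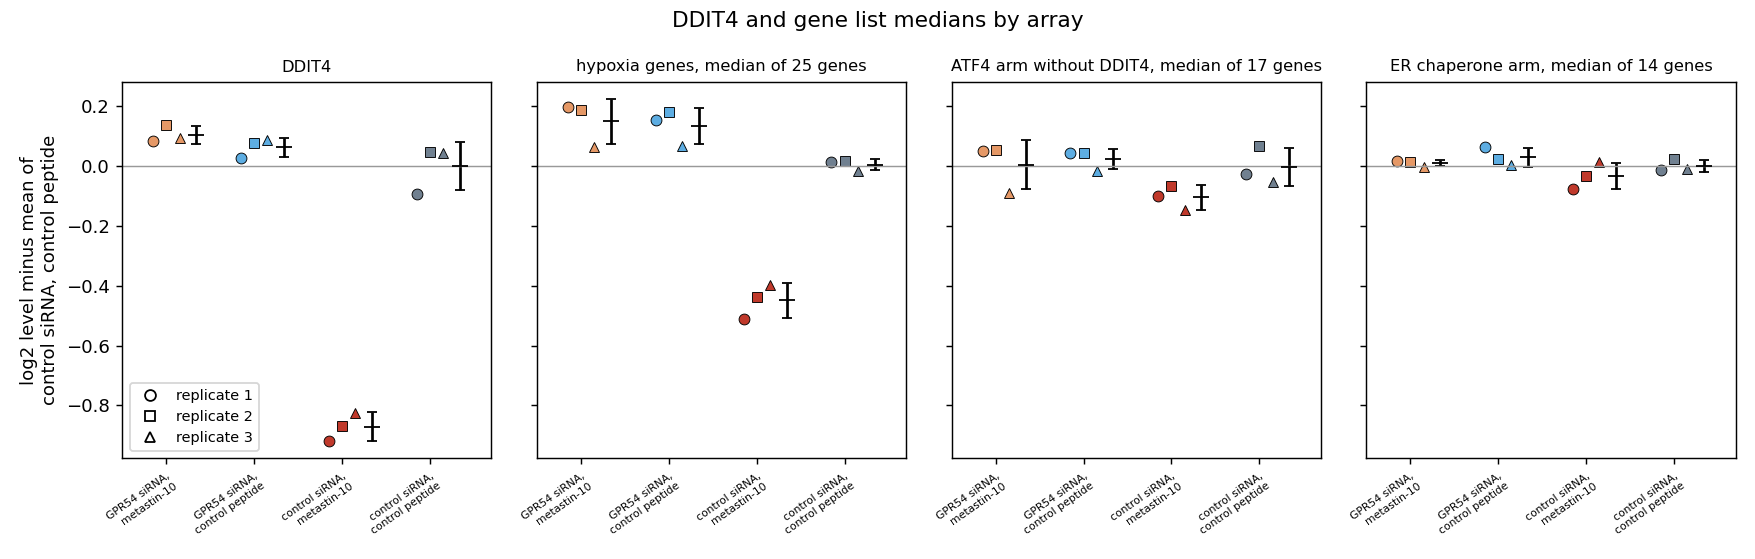
Level in each array minus the mean of the control siRNA, control peptide arrays (log2), for DDIT4 and for the median gene of the hypoxia list, of the ATF4 arm without DDIT4 and of the ER chaperone arm; points are arrays, bars the group mean and SD (n = 3). The control siRNA, metastin-10 arrays lie near −0.87 for DDIT4 and near −0.45 for the hypoxia list. In the ATF4 arm without DDIT4 they lie at −0.10, −0.06 and −0.15. There they are below both control peptide groups and overlap the GPR54 siRNA, metastin-10 arrays. In the ER chaperone arm they overlap every other group.

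The other 17 genes of the ATF4 arm did not pass the test. SESN2, a leucine sensor that restrains mTORC1, had 7.18, 7.05 and 7.27 with metastin-10, against 7.57, 7.62 and 7.37 with control peptide (difference −0.35, 95% interval −0.60 to −0.10, adjusted p from limma 0.281). CHAC1, which breaks down glutathione, had 7.02, 6.87 and 7.15 with metastin-10, against 7.24, 7.52 and 7.27 with control peptide (difference −0.33, adjusted p from limma 0.302). DDIT3 (CHOP), a transcription factor of long ER stress, had 8.25, 8.23 and 8.40 with metastin-10, against 8.56, 8.62 and 8.64 with control peptide (difference −0.31, adjusted p from limma 0.216). In each of these 3 genes the metastin-10 arrays lay below the control peptide arrays with no overlap.

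TRIB3, a pseudokinase induced by CHOP and ATF4, had 9.13, 9.12 and 9.17 with metastin-10, against 9.53, 9.38 and 9.41 with control peptide (difference −0.30, adjusted p from limma 0.218). SHMT2, the mitochondrial serine hydroxymethyltransferase, had 11.71, 11.70 and 11.62 with metastin-10, against 11.82, 11.92 and 11.80 with control peptide (difference −0.17). CTH, which makes cysteine from cystathionine, had 7.66, 7.73 and 7.63 with metastin-10, against 7.96, 7.89 and 7.81 with control peptide (difference −0.21). These 3 genes did not overlap between the groups either. PHGDH, which opens serine synthesis, and PPP1R15A (GADD34), which brings the phosphatase back to eIF2 alpha, also had no overlap, with smaller differences of −0.07 and −0.11. CEBPB, a bZIP partner of ATF4, differed by −0.26 with 1 pair of arrays out of order, since its 10.77, 10.86 and 10.67 with metastin-10 overlapped the 11.02, 11.21 and 10.84 with control peptide.

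Some genes of the same arm lay the other way. ATF5, a factor related to ATF4, had 7.21, 7.11 and 7.07 with metastin-10, against 6.81, 7.04 and 6.77 with control peptide (difference 0.26, 95% interval 0.01 to 0.52, adjusted p from limma 0.462). SLC3A2, the heavy chain of amino acid exchangers, had 10.45, 10.50 and 10.46 with metastin-10, against 10.28, 10.38 and 10.44 with control peptide (difference 0.10). These 2 genes had no overlap, higher with metastin-10. SLC7A5, the light chain that carries leucine, had 11.22, 11.32 and 11.14 with metastin-10, against 11.09, 11.16 and 11.04 with control peptide (difference 0.13), and its groups overlapped.

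ATF4 mRNA and the amino acid enzymes ASNS and PSAT1 lay near 0, whereas the enzymes SHMT2, CTH and PHGDH lay lower, as given above. ATF4 mRNA had 12.60, 12.59 and 12.68 with metastin-10, against 12.59, 12.63 and 12.63 with control peptide (difference 0.01, 95% interval −0.15 to 0.16). ASNS, asparagine synthetase, had 11.45, 11.40 and 11.56 with metastin-10, against 11.40, 11.45 and 11.55 with control peptide (difference 0.01, 95% interval −0.18 to 0.19). PSAT1, which follows PHGDH in serine synthesis, differed by −0.03 (95% interval −0.21 to 0.15). SLC7A11, the cystine carrier, differed by −0.10, and CEBPG, another bZIP partner of ATF4, by −0.07. The groups of ATF4, ASNS, PSAT1, SLC7A11 and CEBPG overlapped.

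Counted over the whole arm, 9 of 18 genes lay lower with no overlap and 2 lay higher with no overlap, where 10.9% of all genes lay lower and 8.72% higher with no overlap. The 2 higher genes are thus near the share of all genes. The arm's median within-group SD was smaller, 0.080 against 0.133 over all genes, so here and below such shares do not compare like with like. Limma gave an unadjusted p under 0.05 to 8 of the 18 genes, in either direction, and to 1 of 14 ER chaperone genes. Among all genes 11.9% had such a p. The median difference of the arm was −0.10 with DDIT4 and −0.10 without it, against 0.01 over all genes. A 95% interval inside ±0.5 was found for 13 of 18 genes, so for DDIT4, SESN2, CHAC1, DDIT3 and ATF5 the arrays allow a larger change.

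The 5 transducers showed no call. EIF2AK3 (PERK) had 9.15, 9.26 and 9.28 with metastin-10, against 9.28, 9.33 and 9.20 with control peptide (difference −0.04). XBP1 had 9.91, 10.06 and 10.00 with metastin-10, against 10.11, 10.05 and 10.08 with control peptide (difference −0.09, 95% interval −0.26 to 0.08). EIF2S1 had 11.48, 11.44 and 11.65 with metastin-10, against 11.30, 11.38 and 11.45 with control peptide (difference 0.15). The groups overlapped in all these, and in ERN1 (difference −0.05) and ATF6 (difference 0.01) as well. Every interval of the 5, each from the brightest probe set, lay inside ±0.5.

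No gene of the ER chaperone arm passed the test. HSPA5 (BiP), the ER's main Hsp70 and the usual readout of ATF6, had 12.70, 12.84 and 12.94 with metastin-10, against 12.70, 12.83 and 12.83 with control peptide (difference 0.03, 95% interval −0.16 to 0.23). HSP90B1 (GRP94), the ER's Hsp90, had 10.82, 10.77 and 11.35 with metastin-10, against 10.88, 10.89 and 11.22 with control peptide (difference −0.02). DNAJB9 (ERdj4), an IRE1 target that assists BiP, had 8.60, 8.69 and 8.57 with metastin-10, against 8.80, 8.82 and 8.81 with control peptide (difference −0.19, adjusted p from limma 0.382). DNAJB9 was the lowest of the 14 genes, and its groups did not overlap.

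SEL1L, the partner of SYVN1 in degradation, had 9.50, 9.46 and 9.37 with metastin-10, against 9.56, 9.67 and 9.53 with control peptide (difference −0.14). CRELD2, a secreted ER stress protein, had 10.65, 10.55 and 10.57 with metastin-10, against 10.42, 10.47 and 10.47 with control peptide (difference 0.14). MANF, another secreted ER stress protein, had 10.56, 10.53 and 10.56 with metastin-10, against 10.45, 10.46 and 10.52 with control peptide (difference 0.07). These 3 genes had groups without overlap, SEL1L lower and the others higher. The remaining genes overlapped, with differences of −0.13 for PDIA4, −0.10 for HERPUD1, −0.10 for CALR, −0.04 for EDEM1, −0.01 for CANX, −0.01 for PDIA6, 0.05 for SDF2L1 and 0.10 for DNAJC3. In the whole arm 2 of 14 genes lay lower and 2 higher with no overlap, shares near the 10.9% and 8.72% of all genes. The median difference was −0.01, and the 95% interval of all 14 genes lay inside ±0.5. The genes with an ERSE, HSPA5, HSP90B1, PDIA6, CALR, CANX and CRELD2, thus ranged over −0.10 to 0.14.

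**Figure D2:**
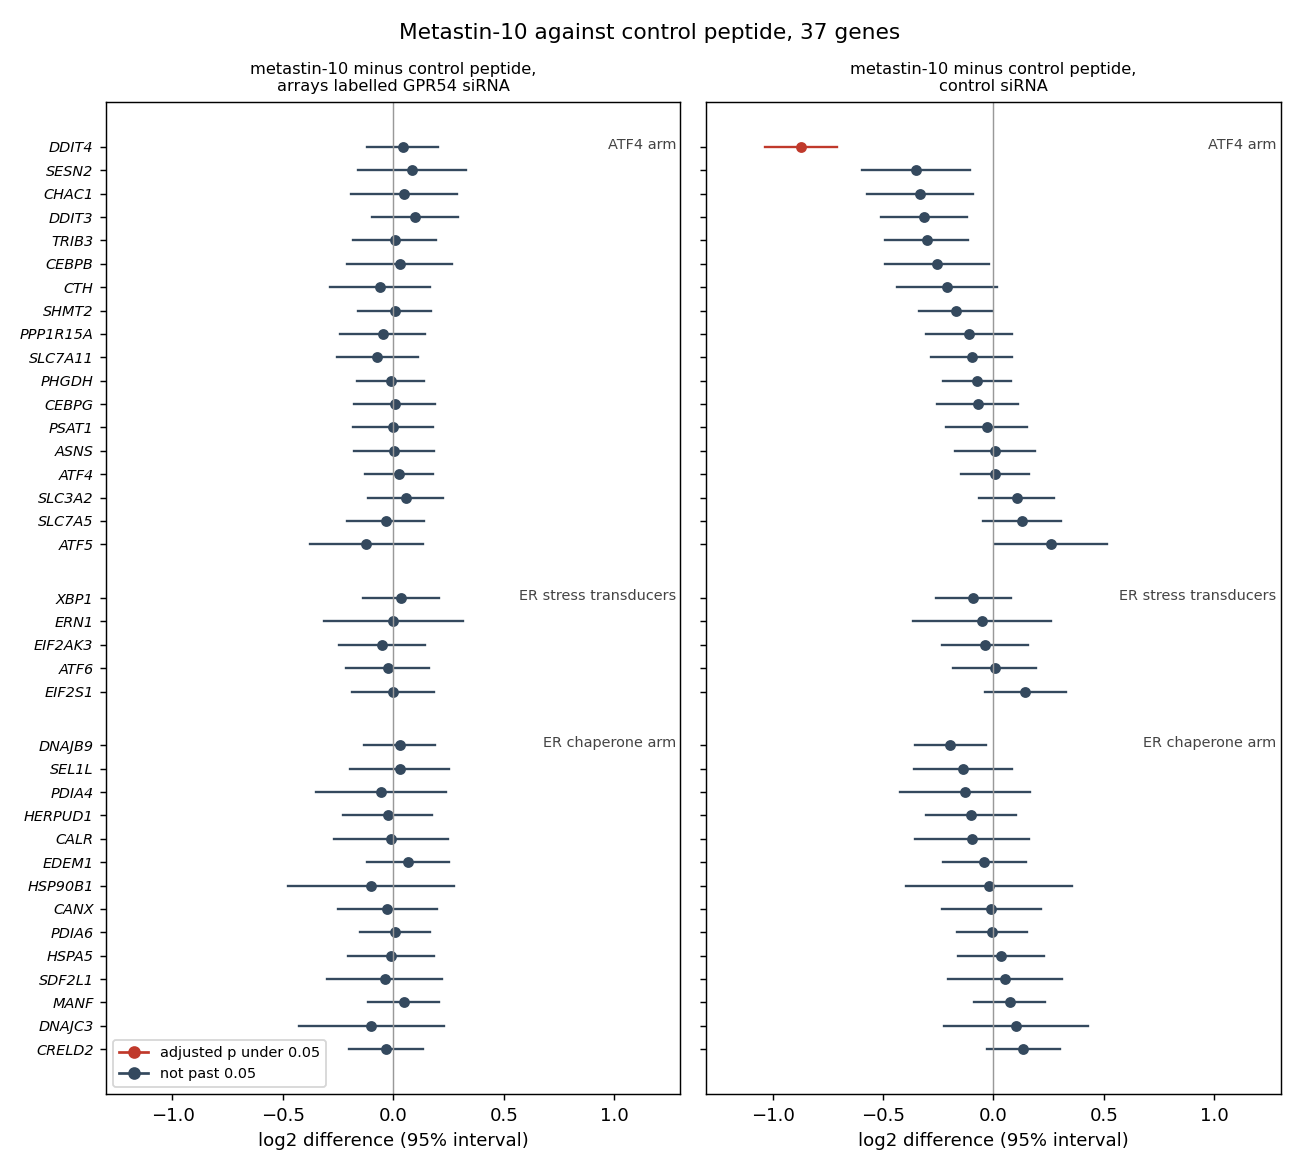
Metastin-10 minus control peptide (log2 difference, point, with its 95% interval, line) for 37 genes in 3 groups, in arrays labelled GPR54 siRNA on the left and under control siRNA on the right. Every point on the left lies between −0.12 and 0.10, and DDIT4, at −0.87 under control siRNA, is the only gene past an adjusted p of 0.05.

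In arrays labelled GPR54 siRNA, metastin-10 changed none of the 37 genes, where 0% of all genes were called. DDIT4 had 12.21, 12.27 and 12.22 with metastin-10, against 12.16, 12.20 and 12.21 with control peptide (difference 0.04, 95% interval −0.12 to 0.20). DDIT3 had 8.84, 8.66 and 8.78 with metastin-10, against 8.76, 8.52 and 8.71 with control peptide (difference 0.10). Both genes overlapped between the groups. The 0 calls from limma came with 0 of 37 genes at an unadjusted p under 0.05, against 357 of all genes, and every other fit that was run also gave 0 calls.

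SESN2 differed by 0.08, SLC3A2 by 0.06, ATF5 by −0.12, SLC7A11 by −0.07 and CTH by −0.06 in that comparison. With DDIT3, these are the 3 highest and the 3 lowest differences of the ATF4 arm. In the ER chaperone arm the values ran from −0.10 for HSP90B1, −0.10 for DNAJC3 and −0.05 for PDIA4 to 0.07 for EDEM1, 0.05 for MANF and 0.03 for DNAJB9, and HSPA5 differed by −0.01. ATF4 differed by 0.03, and the transducers EIF2AK3, ATF6, EIF2S1, ERN1 and XBP1 by −0.05, −0.03, 0.00, 0.00 and 0.03. None of the 37 genes lay apart between the groups, where 4.68% of all genes did. The median difference was 0.01 for the ATF4 arm and −0.02 for the ER chaperone arm, against −0.01 for all genes. The 95% interval of all 37 genes lay inside ±0.5.

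The arrays labelled GPR54 siRNA against control siRNA, both with metastin-10, ask whether the siRNA alters the state under the peptide. DDIT4 and DDIT3 were higher in the arrays labelled GPR54 siRNA, 2 of 37 genes, where 1.04% of all genes were called. KISS1R was higher there as well, by 1.03 (adjusted p from limma 0.000391). This comparison shares its control siRNA, metastin-10 arrays with the peptide comparison under control siRNA, so the values of both are given side by side and are not independent. DDIT4 had 12.21, 12.27 and 12.22 in arrays labelled GPR54 siRNA, against 11.21, 11.26 and 11.30 under control siRNA, a difference of 0.98 (95% interval 0.81 to 1.14; 1.97-fold; adjusted p from limma 6.51e-05). DDIT3 had 8.84, 8.66 and 8.78 in arrays labelled GPR54 siRNA, against 8.25, 8.23 and 8.40 under control siRNA, a difference of 0.47 (95% interval 0.27 to 0.66; 1.38-fold; adjusted p from limma 0.0398).

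Both genes lay without overlap between the groups. The DDIT3 call did not hold when any of 9 of the 12 arrays was left out. Its adjusted p from limma was 0.172 without control siRNA, metastin-10 replicate 1 and 0.173 without replicate 2. It was 0.202, 0.0791 and 0.0846 without GPR54 siRNA, metastin-10 replicates 1, 2 and 3. Leaving out an array given control peptide had it at 0.0666, 0.0675 and 0.0634 (control siRNA, replicates 1, 2 and 3) and at 0.0604 (GPR54 siRNA, replicate 3). The hypoxia list also lay higher here, with 14 of 25 genes called higher and 0 lower, where 1.04% of all genes were called. Its median difference was 0.67.

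TRIB3 had 9.62, 9.52 and 9.42 in arrays labelled GPR54 siRNA with metastin-10, against 9.13, 9.12 and 9.17 under control siRNA (difference 0.38, adjusted p from limma 0.0905). SESN2 had 7.69, 7.59 and 7.40 in arrays labelled GPR54 siRNA, against 7.18, 7.05 and 7.27 under control siRNA (difference 0.39, adjusted p from limma 0.222). CHAC1 had 7.39, 7.41 and 7.17 in arrays labelled GPR54 siRNA, against 7.02, 6.87 and 7.15 under control siRNA (difference 0.31, adjusted p from limma 0.350). These 3 genes did not pass the test, and their groups did not overlap. SHMT2, CEBPB, CEBPG and PHGDH differed by 0.27, 0.25, 0.16 and 0.10 with no overlap, and CTH and PPP1R15A by 0.10 and 0.13 with overlap.

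ATF5 had 7.02, 7.00 and 6.67 in arrays labelled GPR54 siRNA with metastin-10, against 7.21, 7.11 and 7.07 under control siRNA (difference −0.23). SLC7A5 had 11.01, 11.12 and 11.00 in arrays labelled GPR54 siRNA, against 11.22, 11.32 and 11.14 under control siRNA (difference −0.18). These 2 genes lay lower with no overlap. SLC7A11 (−0.09), ASNS (−0.05), PSAT1 (−0.04), SLC3A2 (−0.02) and ATF4 (−0.01, 95% interval −0.17 to 0.14) overlapped. In the whole ATF4 arm 9 of 18 genes lay higher and 2 lower with no overlap, where 11.2% of all genes lay higher and 6.35% lower. Limma gave an unadjusted p under 0.05 to 8 of the 18 genes, in either direction, and to 1 of 14 ER chaperone genes. Among all 19775 genes 2587 had such a p. The median difference of the arm was 0.12, and 0.10 without DDIT4, against 0.00 for all genes. Without GPR54 siRNA, metastin-10 replicate 3 the arm's median was 0.21.

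The ER chaperone arm again had no call. DNAJB9 had 8.94, 8.85 and 8.87 in arrays labelled GPR54 siRNA with metastin-10, against 8.60, 8.69 and 8.57 under control siRNA (difference 0.27, adjusted p from limma 0.191). It was the 1 of 14 genes that lay higher with no overlap, and 0 lay lower. Among all genes 11.2% lay higher and 6.35% lower, so the arm's count is not above that share. SEL1L and CALR differed by 0.12 and 0.11, and DNAJC3, CRELD2 and HSPA5 by −0.17, −0.09 and −0.03. The transducers ran from −0.07 for EIF2S1 over 0.00 for EIF2AK3, 0.02 for ERN1 and 0.04 for ATF6 to 0.05 for XBP1. The median difference of the ER chaperone arm was 0.01, and the 95% interval of all 14 genes lay inside ±0.5.

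**Figure D3:**
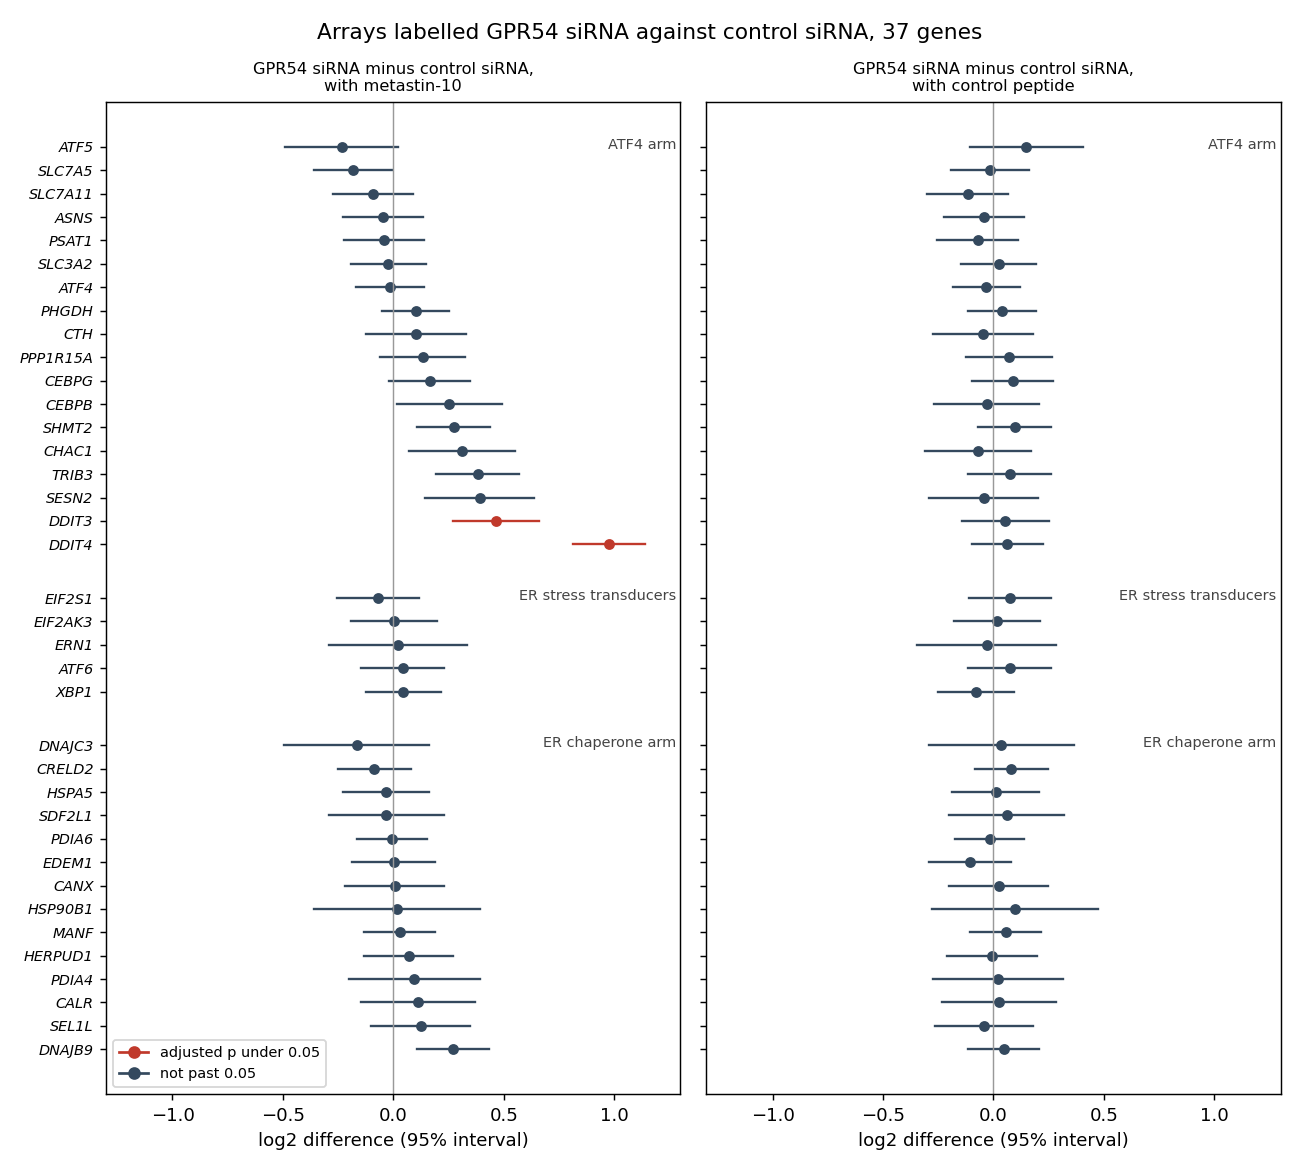
Arrays labelled GPR54 siRNA minus control siRNA (log2 difference, point, with its 95% interval, line) for 37 genes in 3 groups, with metastin-10 on the left and with control peptide on the right. DDIT4 at 0.98 and DDIT3 at 0.47 pass an adjusted p of 0.05 with metastin-10, and with control peptide every point lies between −0.12 and 0.15.

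With control peptide, the siRNA comparison called 0 of 37 genes, where 0% of all genes were called. DDIT4 had 12.16, 12.20 and 12.21 in arrays labelled GPR54 siRNA, against 12.04, 12.18 and 12.17 under control siRNA (difference 0.06, 95% interval −0.10 to 0.23). DDIT3 had 8.76, 8.52 and 8.71 in arrays labelled GPR54 siRNA, against 8.56, 8.62 and 8.64 under control siRNA (difference 0.05). Both overlapped. At an unadjusted p under 0.05 limma gave 0 of 37 genes and 553 of all genes, and every other fit that was run gave 0 calls among the 37. Of all 54613 probe sets 29 were called, and none of these is the brightest probe set of a gene. The hypoxia list had 24 of 25 genes above 0 here, with a median difference of 0.11 and 0 calls. Of its genes 12 lay higher and 0 lower with no overlap, where 1253 and 573 of 19775 genes did.

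ATF5 differed by 0.15, SHMT2 by 0.10, CEBPG by 0.09, SLC7A11 by −0.12, PSAT1 by −0.07 and CHAC1 by −0.07 in this comparison, and ATF4 by −0.03. Among the transducers EIF2S1, ATF6, EIF2AK3, ERN1 and XBP1 differed by 0.08, 0.07, 0.02, −0.03 and −0.08. HSP90B1, CRELD2 and SDF2L1 differed by 0.10, 0.08 and 0.06 in the ER chaperone arm, PDIA6 and SEL1L by −0.02 and −0.04, and HSPA5 by 0.01. EDEM1, which draws misfolded glycoproteins to degradation, had 7.15, 7.17 and 7.05 in arrays labelled GPR54 siRNA, against 7.24, 7.26 and 7.19 under control siRNA (difference −0.11). It was the only one of the 37 genes without overlap, where 9.23% of all genes had none. The median difference was 0.00 for the ATF4 arm and 0.03 for the ER chaperone arm, against 0.02 for all genes.

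**Figure D4:**
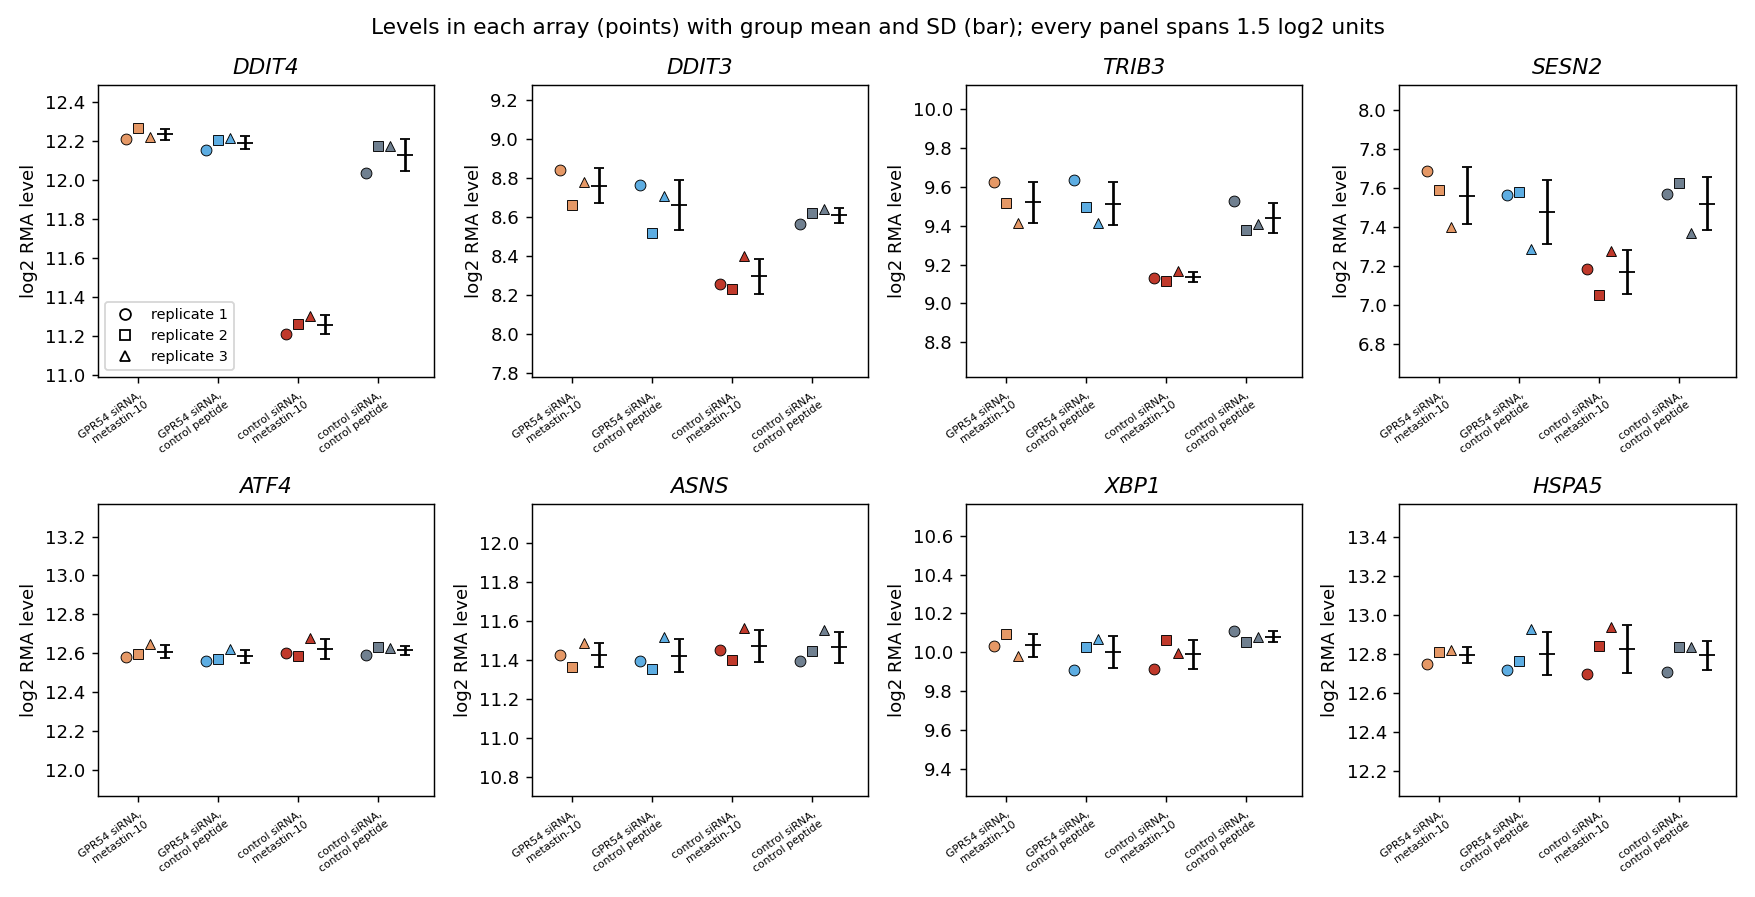
Log2 RMA level of 8 genes in each of the 12 arrays (points, the shape giving the replicate number), with the group mean and SD (bars, n = 3); every panel spans 1.5 log2 units. DDIT4 sits between 11.21 and 11.30 in control siRNA, metastin-10 arrays and between 12.04 and 12.27 in the other 9 arrays, while ATF4, ASNS, XBP1 and HSPA5 overlap among all 4 groups.

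The interaction subtracts the metastin-10 difference under control siRNA from that in arrays labelled GPR54 siRNA, and tests whether the peptide's effect differed between the siRNAs. It was 0.91 for DDIT4 (95% interval 0.68 to 1.14; adjusted p from limma 0.00799), 1 of 37 genes, where 0.106% of all genes were called. Without replicate 2 of the GPR54 siRNA, metastin-10 group the DDIT4 interaction was 0.90 with an adjusted p from limma of 0.0525. SESN2 (0.43), DDIT3 (0.41, adjusted p from limma 0.544), CHAC1 (0.38), TRIB3 (0.31) and ATF5 (−0.38) did not pass. SLC7A5 and SLC3A2 gave −0.17 and −0.05, ATF4 0.02 and HSPA5 −0.04. The transducers EIF2S1, ATF6, EIF2AK3, ERN1 and XBP1 gave −0.15, −0.03, −0.01, 0.05 and 0.12, none past the test. DNAJB9, SEL1L and EDEM1 gave 0.22, 0.17 and 0.11, and DNAJC3, CRELD2 and SDF2L1 −0.20, −0.17 and −0.09. For the 14 ER chaperone genes the 95% interval lay inside ±0.5 in 12.

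Other genes of the same pathways were listed by their known roles, 80 in all with 74 measured. With metastin-10 under control siRNA 2 fell and 0 rose, both from the 26 measured ATF4 targets and amino acid response genes, where 0.607% of all genes were called. STC2, a secreted glycoprotein induced by ER stress and by hypoxia, had 7.63, 7.47 and 7.72 with metastin-10, against 8.28, 8.48 and 8.38 with control peptide (difference −0.77, adjusted p from limma 0.00681). VLDLR, a lipoprotein receptor that ATF4 and HIF-1 both induce, had 7.85, 8.07 and 8.03 with metastin-10, against 8.52, 8.61 and 8.50 with control peptide (difference −0.56, adjusted p from limma 0.0215). The 3 metastin-10 arrays lay below the control peptide arrays in both genes.

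In arrays labelled GPR54 siRNA with metastin-10 the same 2 genes were higher than under control siRNA, STC2 by 0.85 (adjusted p from limma 0.00281) and VLDLR by 0.64 (adjusted p from limma 0.00671), and none was lower, where 1.04% of all genes were called. Neither passed in the interaction (STC2 0.84, adjusted p from limma 0.0993; VLDLR 0.54, adjusted p from limma 0.305). Metastin-10 in arrays labelled GPR54 siRNA, and the siRNA with control peptide, called 0 of the 74. The 13 eIF2 kinase, eIF2B and phosphatase genes, 14 ER folding genes, 11 degradation genes and 10 other transducers had 0 calls in every comparison, with medians of 0.03, −0.03, 0.01 and 0.02 for metastin-10 under control siRNA. At an unadjusted p under 0.05 that comparison gave 1, 1, 0 and 2 of them, where 11.9% of all genes had such a p. The 26 ATF4 targets and amino acid response genes had a median of −0.11 there, with 21 below 0 and 5 above, and 10 had such a p. KLHL24, the lowest of the 26 at −0.93, did not pass (adjusted p from limma 0.0697).

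Other probe sets of the same genes were set against the brightest. The 37 genes had 81 probe sets, 25 genes had more than 1, and none of the 44 other probe sets was called in any comparison. For metastin-10 under control siRNA, 31 of the 44 had the sign of the brightest probe set. Both other SHMT2 probe sets and the second probe sets of SESN2 and TRIB3 had the brightest one's sign, at −0.34 for SESN2 and −0.22 for TRIB3. ATF6 disagreed: its brightest probe set gave 0.01, and the others gave −0.35, −0.03 and −0.42, none past the test. For the siRNA with metastin-10 its brightest gave 0.04 and the others 0.32, 0.08 and 0.34. In the interaction its brightest gave −0.03 and the others 0.32, 0.00 and 0.35. ATF5 disagreed too, with 0.26 for the brightest and 0.09, −0.18 and 0.17 for the others. DNAJB9 disagreed in part, with −0.19 for the brightest and 0.01 and −0.19 for the others. For the siRNA with metastin-10 its brightest gave 0.27 and the others 0.09 and 0.24.

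**Figure D5:**
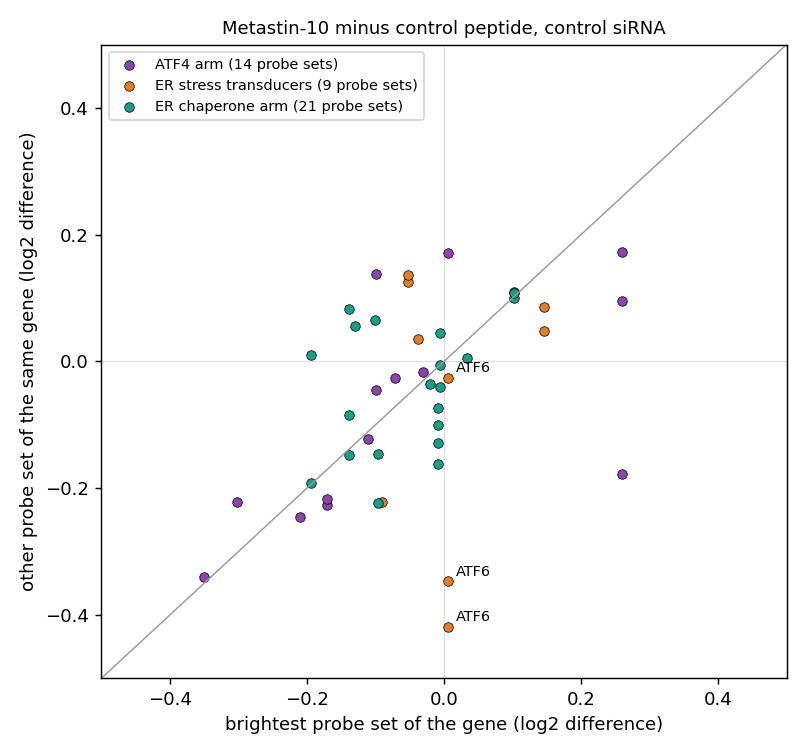
Metastin-10 minus control peptide under control siRNA (log2 difference): each of 44 other probe sets on the vertical axis against the brightest probe set of the same gene on the horizontal axis, coloured by gene group, with the line of equality. Of the 44, 31 have the sign of the brightest, and the ATF6 points at −0.35 and −0.42 and the ATF5 point at −0.18 lie well below the line.

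The spread within a group, as the median SD over genes, was 0.080 in the ATF4 arm, 0.110 in the ER chaperone arm and 0.133 over all genes. In several chaperones this spread followed the replicate number. In the 4 arrays of replicate 3, HSP90B1 lay between 11.20 and 11.37, against 10.77 to 11.05 in the other 8 arrays. DNAJC3, a BiP co-chaperone that also inhibits eIF2 kinases, lay between 9.02 and 9.33 in replicate 3, against 9.40 to 9.58 in the others. PDIA4, a disulphide isomerase, lay between 10.01 and 10.19 in replicate 3, against 10.22 to 10.50 in the others. HERPUD1 and ASNS lay above, and CALR and CANX below, in all 4 arrays of replicate 3, so 3 of 37 genes lay above and 4 below, against 385 and 1100 of 19775 genes. DDIT4, DDIT3 and TRIB3 overlapped between replicate 3 and the other arrays. The comparison pools the 4 groups, so a gene that differs between groups can overlap whatever replicate 3 does. It therefore does not show that these genes are free of a replicate 3 shift.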

How the data were processed

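The authors deposited 1 table of log2 values for 12 Affymetrix arrays, normalized with RMA per the submitters' processing notes, which name no software version. The deposited log2 values ran from 1.88 to 14.6. RMA quantile-normalizes the arrays, which hides any shift shared by most genes, and dim probe sets can show compressed differences. Probe sets were named through the platform annotation: of 54613 tested, 41091 list 1 gene, 1801 several and 11721 have none listed. The 62 control probe sets were left out, and no filter on level was set.

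Each probe set was fitted in limma 3.58.1 (R 4.3.3) as 4 group means over the 12 arrays (8 residual degrees of freedom), with 5 contrasts, two-sided tests and Benjamini-Hochberg adjustment over all probe sets of a contrast at 0.05. The fit was tested on simulated data. Precision is limited by the number of arrays: the median half-width of a 95% interval was 0.25. Exact tests of 3 against 3 arrays cannot go below 0.1 and were not used.

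The labels call the arrays biological replicates and say nothing of separate cultures, so p-values measure the spread between these samples. Replicate numbers are shared between groups. Deviations of same-numbered arrays correlated at 0.174 to 0.436 and 0.261 to 0.521 for metastin-10 under control and GPR54 siRNA, at 0.108 to 0.545 for the siRNA with control peptide, and at −0.148 to 0.262 for the siRNA with metastin-10. Arrays of different number correlated at up to 0.286, 0.128, 0.265 and 0.100 in these comparisons, in the same order. Only for metastin-10 in arrays labelled GPR54 siRNA did every same-numbered pair lie above all differently numbered ones. In the other comparisons the check does not show that the numbers pair the arrays.

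The members and lists were chosen with earlier results of these data known. Named with values are members past the threshold, the 3 highest and 3 lowest of each arm per contrast, ATF4, DDIT3, DDIT4, XBP1, HSPA5 and the transducers; other members are given to account for the list, and those added with per-array values were chosen after their values were seen. Alternatives were a replicate block, replicate 3 as a block, only the groups compared, array weights, a filter on dim probe sets, a second quantile normalization, the mean over a gene's probe sets, leaving out each array, and, added after seeing the data, replicates 1 and 2 only. HSP90B1 and CALR are read by probe sets that may cross-hybridise.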

Additional observations from a re-analysis of the deposited data

Results flagged for a closer look

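DDIT4 stood out because its response to metastin-10 differed between the siRNAs by a test of the difference itself: the interaction was 0.91 on the log2 scale (adjusted p from limma 0.00799). The metastin-10 difference was 0.04 in arrays labelled GPR54 siRNA and −0.87 under control siRNA. All 3 control siRNA, metastin-10 arrays lay below the other 9 arrays. Such an interaction was not particular to DDIT4. Of the 25 measured hypoxia genes 5 were called higher and 0 lower in it, where 0.106% of all genes were called. All 25 lay above 0, with a median of 0.48. KISS1R, the siRNA's target, was no lower where the label names the GPR54 siRNA, and what sets the 2 siRNA conditions apart was not tested.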

How the results depend on the processing

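Metastin-10 under control siRNA called 1 gene (DDIT4) in all 20 alternatives, with DDIT4 between −0.92 and −0.85 and its adjusted p from limma at most 0.021. Metastin-10 in arrays labelled GPR54 siRNA, and the siRNA with control peptide, called 0 genes in all 20. For the siRNA with metastin-10 the 2 calls became 1 with only the groups compared, 4 with the mean over a gene's probe sets, 6 with array weights and 1 with replicates 1 and 2 only, and 1 to 2 when an array was left out. DDIT4 stayed past the threshold in all 20 (0.95 to 1.01), and DDIT3 passed in 9 of 20. TRIB3 passed there with the replicate block (adjusted p from limma 0.043), replicate 3 as a block (0.0463), array weights (0.0115), the filter on dim probe sets (0.0305) and the mean over probe sets (0.0313). SHMT2 also passed with array weights (0.0333) and the mean over probe sets (0.0232), and CHAC1 (0.0269) and SESN2 (0.0194) with array weights. The interaction's 1 call became 0 with replicates 1 and 2 only (DDIT4 0.93, adjusted p from limma 0.132), and 0 to 1 when an array was left out. With the replicate block the calls were 1 and 0 for metastin-10 under control and GPR54 siRNA, and 0 for the siRNA with control peptide. They were 1 for the interaction and 3 for the siRNA with metastin-10. The block changed no call but that of TRIB3. The median of the ATF4 arm for metastin-10 under control siRNA ranged from −0.14 to −0.07, and that of the ER chaperone arm from −0.06 to 0.00. For the siRNA with metastin-10 the ATF4 arm's median of 0.12 ranged from 0.08 to 0.21, the highest without GPR54 siRNA, metastin-10 replicate 3, and was 0.19 with replicates 1 and 2 only. No result changed direction past the threshold, and the cause of the changed counts was not tested.

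Over all 54613 probe sets, the counts of calls moved more: metastin-10 under control siRNA called 234, against 71 to 532 in the alternatives, and the siRNA with metastin-10 called 316, against 57 to 2016. Signal over background is unknown here, since no detection calls were used.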
